A study of Sus scrofa with 30 samples.

Results

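S100 proteins and annexins are calcium-binding proteins, and 10 of their genes were followed through the sow mammary gland: S100A4, S100A6, S100A8, S100A9, S100A11, S100A12, ANXA1, ANXA2, ANXA5 and ANXA8. All 10 were in the deposited table, as 18 of its 61773 transcripts. The transcripts of a gene were summed, and the whole table then held 25991 genes and assembled loci, of which 14930 were reference genes. The genes were chosen by name with the stage values of these sows in view, and no threshold was set on them. S100A6 and ANXA8 had been singled out by the study for early lactation, so their comparisons with that stage are given as values with no p. The study described both as upregulated for that stage, whereas in the values below both had their lowest mean there. The p-values of the other 8 genes set stage differences against the spread between samples. They are not independent evidence for the choice of genes.

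S100 proteins are small proteins with a pair of EF-hand calcium sites that mostly act as dimers. S100A8 and S100A9 form calprotectin, and with S100A12 they make up the calgranulins, which are abundant in neutrophils and monocytes and can be made by stressed epithelium. Annexins bind negatively charged membrane lipids when calcium is present and take part in vesicle transport, membrane repair and the control of inflammation. In the mammary gland, secretory epithelial cells move large amounts of calcium, fat droplets and protein vesicles through their apical membrane, and involution after weaning brings cell death and immune cells into the tissue.

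RNA was sequenced from mammary parenchyma of 30 multiparous half-sibling Danish Landrace × Yorkshire sows, with no treatment named. The 5 stages had 6 sows each: days 70 (MG, mid-gestation) and 110 (LG, late gestation) of pregnancy, day 2 (EL, early lactation) and day 10 (PL, peak lactation) postpartum, and day 2 post-weaning (W2). The samples titled EL carry a tag for mid-gestation and those titled MG a tag for early lactation, and the titles were followed. Bulk tissue from a different sow at each stage was measured, so a lower value can come from fewer cells of a type or from less RNA per cell, and these cannot be told apart. Values are also shares of a nearly fixed total per sample, so a larger share of milk protein transcripts lowers the values of other genes.

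Only 3 samples per stage were counted. In every stage the other 3 columns were close copies of the mean of the counted ones: pairs among them differed by a median of 1.62% to 1.85% over transcripts, against 19.6% to 59.8% between counted samples. Each column summed to between 997480 and 1002643 units, so a unit is close to a millionth of the RNA of a sample per transcript length. The table holds no read counts, so the counting error behind a value could not be computed from it. The epithelial marker EPCAM stood between 475 and 754 units in the counted samples, as a check of the labelled tissue. Its highest mean was in EL (630 units). Other markers of the luminal list were less even. KRT8, KRT18 and KRT19 had their lowest means in EL (111, 30.4 and 217 units), against 235, 63.7 and 275 in MG and 298, 94.3 and 352 in W2. ELF5 had its lowest mean in W2 (151 units). The part of epithelial content in the values below was not tested. As a check of the titles, the 6 milk protein genes summed to 63857 to 120785 units in the samples titled EL. They summed to 11906 to 29461 in those titled MG. The higher level was thus under the title of early lactation, as the titles and not the tags would have it. PL sample 2 stood apart. Its 6 milk protein genes summed to 285004 units, against 138798 and 91237 in PL samples 3 and 6 and at most 120785 at the other stages, and the median ratio of its genes to their mean over the samples was -0.82 on the log2 scale. Differences are given as log2(units + 0.5) with the standard error from limma, and a comparison was called at an adjusted p below 0.05 over all genes and loci.

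The 3 calgranulin genes carried the clearest stage difference of the 10, and all were highest at peak lactation. S100A8 was listed at 0, 0 and 0.27 units in MG, at 0 in all LG, EL and W2 samples, and at 3.50, 2.69 and 12.7 units in PL samples 2, 3 and 6. S100A9, its partner in calprotectin, was listed at 0.26, 0.64 and 0 units in MG, at 0, 0 and 0.17 in LG, at 0 in all EL samples, at 1.93, 7.86 and 13.9 in PL, and at 0, 0.38 and 0 in W2. S100A12, a ligand of the receptor AGER, was listed at 0, 1.39 and 0 units in MG, at 0 in all LG samples, at 0, 0 and 0.62 in EL, at 3.66, 4.96 and 19.8 in PL, and at 0, 1.06 and 0.63 in W2. PL sample 6 was the highest of all samples for each of the 3 genes. Every PL sample lay above all 12 samples of the other stages for these 3 genes and for none of the other 7, a pattern that 1.10% of all genes and loci had.

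**Figure D1:**
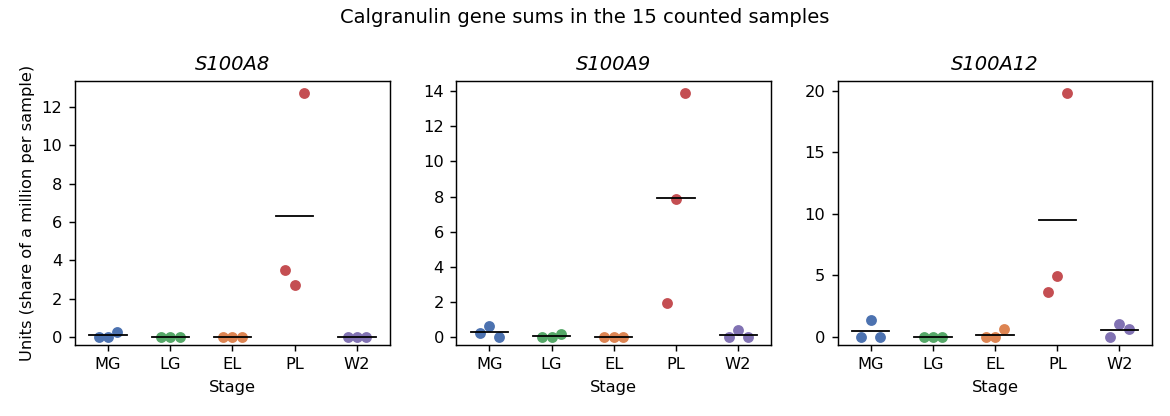
Units of S100A8, S100A9 and S100A12 (vertical axes from 0) by stage; each point is 1 of the 3 counted samples of a stage and the line is their mean. All PL points lie above all other points, and PL sample 6 is the highest at 12.7, 13.9 and 19.8 units.

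The test over all 5 stages called these 3 genes of the 8 tested, with adjusted p of 0.00089 for S100A8, 0.0026 for S100A9 and 0.0084 for S100A12, where 18.3% of all genes and loci were called. Each of the 3 was higher in PL in all 4 comparisons that include that stage. Higher calls in PL made up 0.777% of all genes and loci against EL, 1.62% against LG, 2.23% against MG and 2.48% against W2. For S100A8 the adjusted p was 0.0015 against EL, 0.00063 against LG, 0.00046 against MG and 0.00025 against W2. For S100A9 it was 0.0030 against EL, 0.0016 against LG, 0.0020 against MG and 0.00082 against W2. For S100A12 it was 0.012 against EL, 0.0029 against LG, 0.0048 against MG and 0.0058 against W2.

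The size of these differences is set in part by the 0.5 units added, since the other stages were at or near 0. No fold is given against a stage in which every sample was listed at 0. Against MG, S100A8 was higher in PL by 3.26 ± 0.43, S100A9 by 3.13 ± 0.54 and S100A12 by 3.31 ± 0.68 on the log2 scale (limma standard error, n = 3 per stage). With 0.1 units added in place of 0.5 these were 5.03, 4.35 and 4.88, and with 1 unit added 2.50, 2.51 and 2.64. The main fit pools the spread of all 5 stages, also of those listed at 0. S100A8 had a standard deviation of 0 units in LG, EL and W2 and of 5.56 in PL. S100A9 had 0 in EL and 5.98 in PL, and S100A12 had 0 in LG and 8.96 in PL. The standard errors and adjusted p-values of these genes thus understate the spread of the PL samples. Fitted on the compared stages alone, 9 of these 12 calls were lost (adjusted p = 0.053 to 0.19), and S100A12 against EL was also lost without EL sample 3 (adjusted p = 0.059). The levels themselves were low at their highest, and averaged over the 15 samples the 3 genes ranked 11777, 11135 and 10568 of the 14930 reference genes.

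S100A8, S100A12 and S100A9 lie in this order within 29.3 kb of chromosome 4 (Sscrofa11.1), S100A8 at chr4:96209670-96210603, S100A12 at chr4:96225691-96227030 and S100A9 at chr4:96236114-96238989. They belong to a cluster of 15 S100 genes over 1265.5 kb, of which 13 were in the table. S100A4 (chr4:96088102-96091160) and S100A6 (chr4:96098264-96099686) lie on one side of the calgranulins and S100A11 (chr4:97233833-97239081) on the other. The 3 calgranulins and S100A2 were the genes of the cluster called higher in PL than in W2. S100A16 and S100A4 were the ones called higher in W2, where 30.4% of all genes and loci were, and neither was with median ratio scaling.

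**Figure D2:**
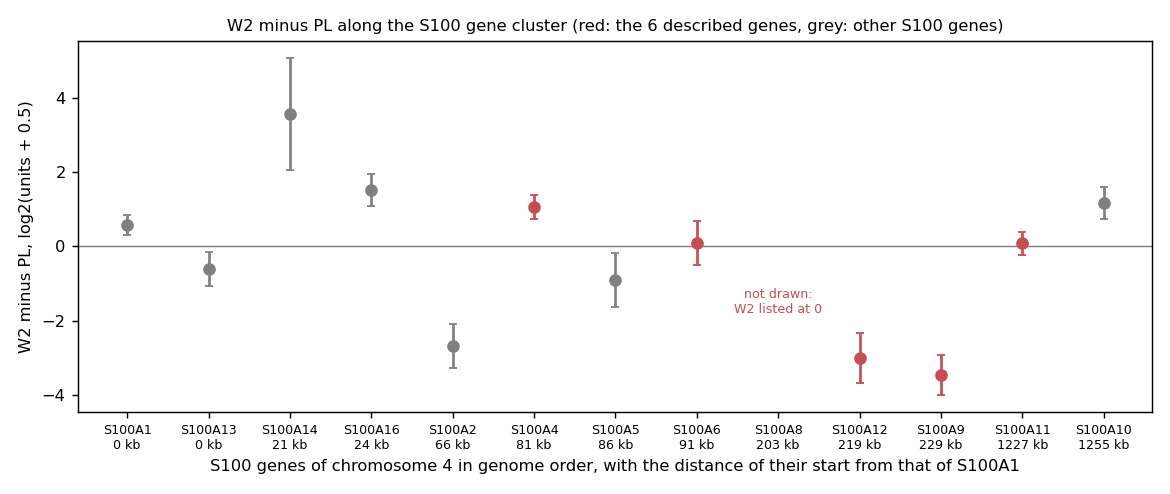
W2 minus PL on the log2(units + 0.5) scale (vertical axis, bars are standard errors) for the 13 S100 genes of chromosome 4 in the table, in genome order and not to scale, with the distance from the start of S100A1 in kb. S100A12, S100A9 and S100A2 lie between -3.46 and -2.69, and S100A4 at 1.06. S100A8 has no point, since every W2 value of it is listed at 0.

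At the transcript level S100A8 (NM_001160271.3) and S100A12 (NM_001160272.1) have 1 transcript each and were called in the 4 comparisons with PL. No transcript of S100A9 was called. Its units stood under a different transcript in each PL sample: PL sample 2 had 1.93 units under XM_013997035.2, PL sample 3 had 7.86 under XM_021088453.1, and PL sample 6 had 11.5 under NM_001177906.1 and 2.35 under XM_013997035.2. The sum per gene was at least 1.93 units in all 3 PL samples, while each transcript was at 0 in at least 1 of them. In all, 11 of 164 pairs of a transcript and a comparison were called for the 10 genes, all in comparisons with PL. There 0.698% of all transcripts were called against EL, 2.26% against LG, 4.28% against MG and 7.13% against W2.

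Calgranulins are leukocyte genes in many tissues, so marker lists of leukocytes were set beside them. Of the 10 neutrophil markers 5 were in the table, and 4 of them are described. CSF3R, the receptor of granulocyte growth factor, lay between 0.12 and 1.53 units in PL and between 0.46 and 1.66 elsewhere. ELANE, neutrophil elastase, lay between 0.10 and 0.34 units in PL and between 0.25 and 1.24 elsewhere. With MMP9, a protease of neutrophils and other cells, these 3 genes summed to 1.92 to 20.1 units in PL, 5.55 to 22.7 in W2, 3.13 to 13.1 in MG, 5.05 to 9.95 in LG and 4.32 to 19.5 in EL, and none of the 3 was called between PL and another stage. PGLYRP1, a peptidoglycan-binding protein, had 7333, 3222 and 1830 units in PL samples 2, 3 and 6 and 290 to 5108 at the other stages, and fell from PL to W2 by 3.56 ± 0.50 (adjusted p = 0.00047).

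Of the 6 monocyte and macrophage markers 5 were in the table, and they did not move together. CD14, the co-receptor for bacterial lipopolysaccharide, was listed at 9.23, 234 and 298 units in PL samples 2, 3 and 6 and at 3.45 to 9.92 in the other 12 samples. It was called higher in PL in all 4 comparisons, with a W2 minus PL difference of -3.64 ± 0.93 (adjusted p = 0.011). CSF1R, the receptor that sustains macrophages, was 1.31 to 7.46 units in PL, and rose from PL to W2 by 2.52 ± 0.48 (adjusted p = 0.0025). CD163, a scavenger receptor of macrophages, was 0.18 to 7.01 units in PL and rose to W2 by 2.51 ± 0.74 (adjusted p = 0.022). AIF1 rose to W2 by 0.78 ± 0.18 (adjusted p = 0.0066). MRC1 had 2.72 to 3.55 units in PL and 3.08 to 6.50 in W2 and was not called between them. Thus 3 of the 5 markers were called higher in W2 than in PL, beside 30.4% of all genes and loci. CD14 was the 1 called higher in PL, beside 2.48%. The median W2 minus PL difference of all genes and loci was itself 0.68. The summed level of the 5 genes was 35.6, 269 and 317 units in PL, carried by CD14, and 36.4 to 80.4 units in the other samples. The part of leukocyte number in the calgranulin values was not tested.

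**Figure D3:**
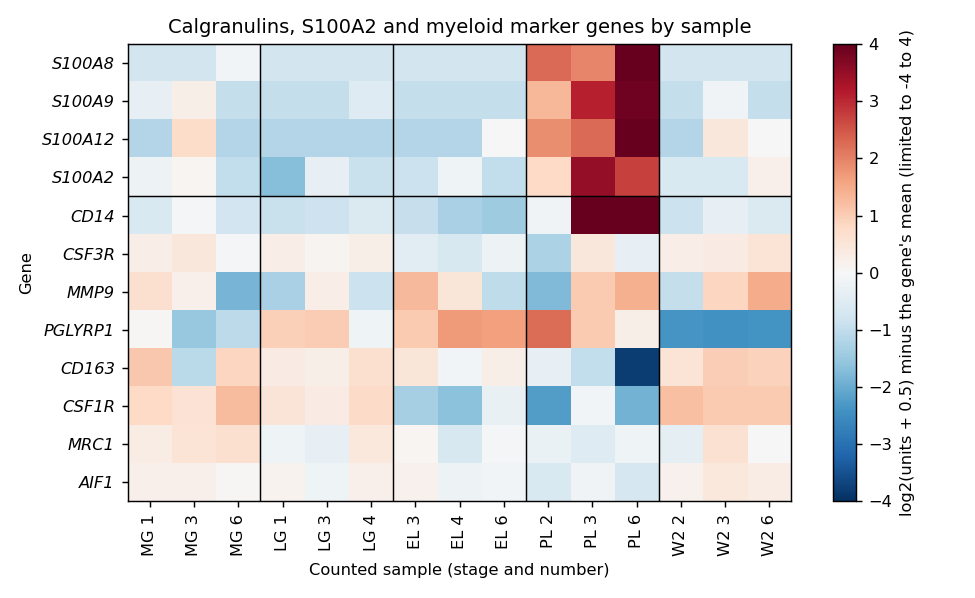
Each row is a gene and each column 1 of the 15 counted samples, coloured by log2(units + 0.5) minus the mean of the gene, limited to -4 to 4. The 3 calgranulins and S100A2 are highest in the PL samples, CD14 in PL samples 3 and 6 only, and CSF3R, CSF1R and CD163 are not highest there.

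ANXA2 was the most abundant of the 10 genes and ranked 104 of 14930 by its mean of 1193 units. It binds lipid membranes as a complex with S100A10 and lies at chr1:111588721-111635064. Its values were 1316, 1471 and 1476 units in MG, 1211, 1139 and 1197 in LG, 1074, 857 and 824 in EL, 281, 1508 and 1079 in PL, and 1351, 1500.3 and 1611 in W2. The samples fell into separate ranges from MG through LG to EL. The share of all genes and loci with such ranges was not counted. The PL samples spanned all of these ranges, and PL sample 2 was the lowest of the 15. No step was called: LG minus MG was -0.26 ± 0.44, EL minus LG -0.37 ± 0.44 (adjusted p = 0.83), PL minus EL -0.24 ± 0.44 (adjusted p = 0.83) and W2 minus PL 0.95 ± 0.44 (adjusted p = 0.11). The PL minus EL difference turned to 0.48 without PL sample 2 and to 0.092 with median ratio scaling, and W2 minus PL was called without PL sample 3 (1.43, adjusted p = 0.018).

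ANXA2 has 3 transcripts in the table, and NM_001005726.1 held 90.4% of its units. In W2 sample 2 the gene was split over 644 units under NM_001005726.1, 445 under XM_013992912.2 and 262 under XM_005659537.2. XM_013992912.2 also held 399 units in MG sample 1 and 306 in LG sample 4, and at most 39.8 in the other samples of those 2 stages. These were single samples, and no ANXA2 transcript was called in any comparison. S100A10, the partner of ANXA2, was the next most abundant of the families. It had 110, 384 and 425 units in PL samples 2, 3 and 6 and 646, 640 and 485 in W2, a W2 minus PL difference of 1.16 ± 0.44 (adjusted p = 0.058).

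ANXA1 is a glucocorticoid-induced protein that limits neutrophil recruitment and lies at chr1:226414200-226431963. It had 124, 130 and 105 units in MG, 66.1, 83.2 and 116 in LG, 71.8, 60.9 and 49.8 in EL, 47.8, 150 and 99.0 in PL, and 105, 153 and 165 in W2. The MG and EL samples did not overlap, nor did the EL and W2 samples, and PL sample 2 was the lowest of the 15. ANXA1 was 0.98 ± 0.35 lower in EL than in MG (unadjusted p = 0.016, adjusted p = 0.25) and 1.20 ± 0.35 higher in W2 than in EL (unadjusted p = 0.0049, adjusted p = 0.095). The consecutive steps were -0.46 ± 0.35 from MG to LG, -0.51 ± 0.35 from LG to EL, 0.57 ± 0.35 from EL to PL (adjusted p = 0.42) and 0.63 ± 0.35 from PL to W2 (adjusted p = 0.19). Without PL sample 2 the step from EL to PL was called (1.01, adjusted p = 0.049), and without PL sample 3 the step from PL to W2 was called (1.01, adjusted p = 0.034).

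ANXA5, which binds phosphatidylserine exposed on dying cells, lies at chr8:102387833-102420868. It had 195, 179 and 169 units in MG, 126, 157 and 167 in LG, 128, 142 and 113 in EL, 87.6, 210 and 183 in PL, and 161, 196 and 218 in W2. All MG and W2 samples were above all EL samples, and PL sample 2 was the lowest of the 15. No step was called, and the differences were -0.28, -0.23, 0.24 and 0.34 with a standard error of 0.27 each. Without PL sample 2 the step from EL to PL was called (0.62, adjusted p = 0.037), and the step from PL to W2 turned to -0.045.

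ANXA8, an annexin of epithelial and endosomal membranes at chr14:88319209-88340716, was low and variable. It had 7.08, 7.51 and 5.02 units in MG, 5.28, 3.03 and 5.21 in LG, 0.034, 1.70 and 0 in EL, 0, 9.42 and 18.5 in PL, and 3.06, 7.70 and 11.6 in W2. EL was the lowest stage and held no sample above 1.70 units, but PL sample 2 was listed at 0 as well. EL minus LG was -2.55 ± 1.07 and PL minus EL 2.44 ± 1.07. W2 minus PL was 0.63 ± 1.07 (adjusted p = 0.68), and turned to -0.96 without PL sample 2.

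S100A6, or calcyclin, is a partner of CACYBP and was also among the reference genes the study considered for its PCR. It had 116, 124 and 76.2 units in MG, 52.8, 63.5 and 65.2 in LG, 29.5, 34.1 and 22.0 in EL, 29.8, 145 and 163 in PL, and 39.7, 142 and 151 in W2. The ranges of MG, LG and EL did not overlap and went down in that order. The share of all genes and loci with this order was not counted. In PL and in W2, 1 sample of 3 was near the EL values and the other 2 were above every MG sample. EL minus LG was -1.09 ± 0.60 and PL minus EL 1.65 ± 0.60. LG minus MG was -0.77 ± 0.60 and W2 minus PL was 0.09 ± 0.60 (adjusted p = 0.94). NM_001044557.1 held 97.0% of its units.

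S100A11, a partner of ANXA1 in epithelium, was the most abundant S100 gene of the 10 and ranked 242 of 14930. It had 245, 257 and 323 units in MG, 220, 202 and 223 in LG, 164, 179 and 199.6 in EL, 144, 439 and 348 in PL, and 281, 255 and 364 in W2. The ranges of MG, LG and EL did not overlap, and PL held both the lowest sample of the 15 and, in sample 3, the highest. How many of all genes and loci had separate MG, LG and EL ranges was not counted. PL minus EL was 0.64 ± 0.32 (adjusted p = 0.30). This difference was called with median ratio scaling (0.97, adjusted p = 0.031) and without PL sample 2 (1.12, adjusted p = 0.0027). W2 minus PL was 0.08 ± 0.32 (adjusted p = 0.88) and turned to -0.66 with median ratio scaling and -0.40 without PL sample 2.

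S100A4, a gene of fibroblasts and motile cells, was the least abundant of the 6 genes that were above 0 in every counted sample. It had 10.8, 6.87 and 5.87 units in MG, 6.11, 8.19 and 8.51 in LG, 5.11, 5.21 and 3.31 in EL, 2.94, 6.17 and 3.45 in PL, and 6.31, 8.96 and 12.3 in W2. All W2 samples lay above all PL samples, and the share of all genes and loci with this separation was not counted. W2 minus PL was 1.06 ± 0.33 (adjusted p = 0.027), the only call outside the calgranulins. It was 1 of the 10 genes, beside the 30.4% of all genes and loci called higher in W2 than in PL. The call was lost with median ratio scaling (0.38, adjusted p = 0.45), with quantile normalization (0.34, adjusted p = 0.52), with the compared stages alone (adjusted p = 0.12), and without PL sample 2 (0.87), PL sample 6 (0.97), W2 sample 3 (1.05) or W2 sample 6 (0.84). Over the same samples the 6 fibroblast markers summed to 472, 1087 and 617 units in PL and 1401, 2632 and 2330 in W2, and their part in the S100A4 values was not tested.

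Of its 3 transcripts, NM_001252605.1 held 40.8% of S100A4 and was the steadiest. It had 4.19, 3.58 and 3.87 units in MG, 4.32, 3.82 and 3.62 in LG, 1.46, 2.06 and 1.17 in EL, 0.67, 1.21 and 1.01 in PL, and 2.92, 1.88 and 5.08 in W2. It was lower in PL than in MG by 1.60 ± 0.35 (adjusted p = 0.024) and than in LG by 1.61 ± 0.35 (adjusted p = 0.034), and W2 minus PL was 1.30 ± 0.35 (adjusted p = 0.044). The other 2 transcripts, XM_005663356.3 and XM_005663357.3, varied between samples of a stage, for example from 0 to 5.14 units for XM_005663357.3 in W2.

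**Figure D4:**
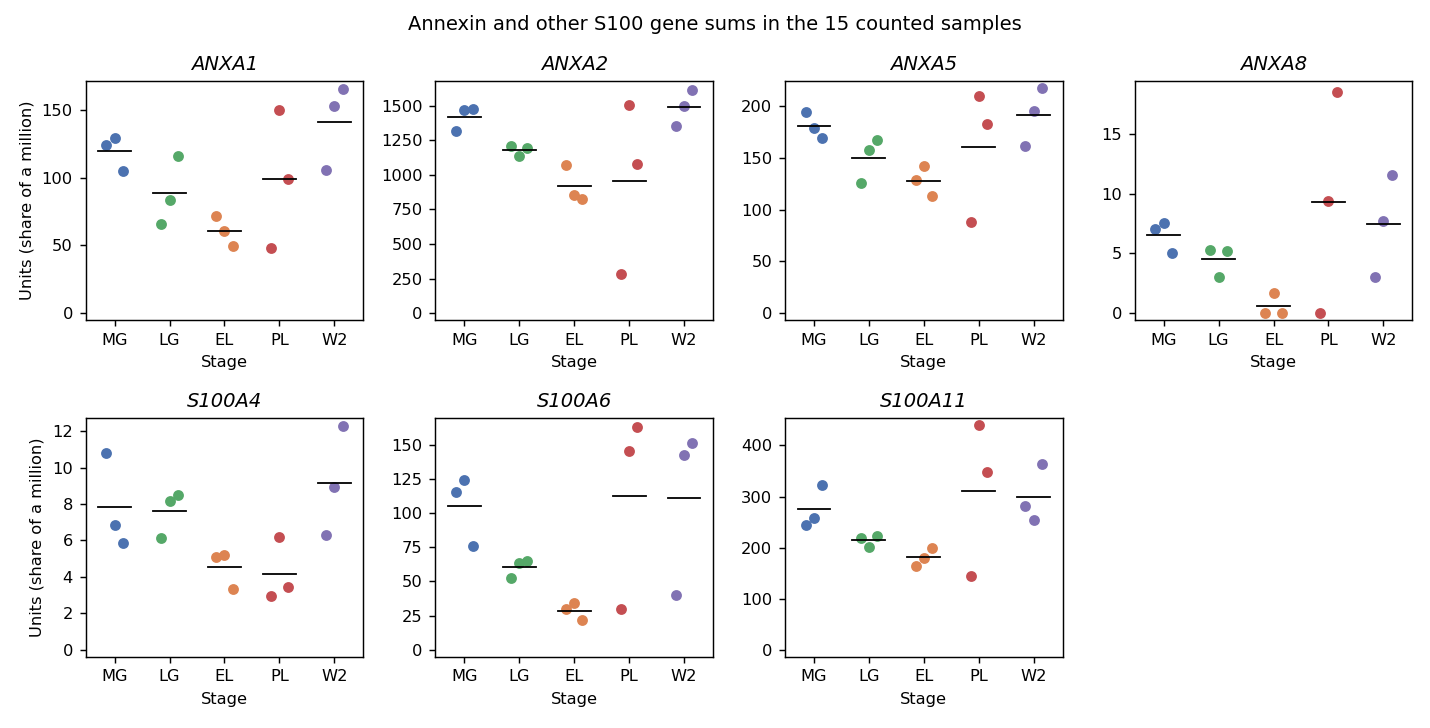
Units of 4 annexin and 3 S100 genes (vertical axes from 0, a scale of its own for each gene) by stage; points are the 3 counted samples and lines their mean. For 6 of the 7 genes EL has the lowest mean, and the PL points spread over most of the range, with ANXA2 at 281, 1508 and 1079 units.

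In the 7 genes other than the calgranulins every EL sample was below every MG sample, as in 27.5% of all genes and loci. In all 7 every W2 sample was above every EL sample, as in 35.5% of all genes and loci. S100A4 had its lowest mean in PL, 4.19 units against 4.55 in EL. The separation of EL from MG and W2 was noticed in the values and has no test over the 7 genes, and 2 of them, S100A6 and ANXA8, had been chosen for EL. None of the 10 was called in the 6 comparisons without PL with the 15 counted samples. PL sample 2 also entered the estimate of the spread. Without it, S100A11, ANXA1, ANXA2 and ANXA5 were called higher in W2 than in EL and ANXA2 lower in EL than in MG. The share of all genes and loci called in that fit was not computed, so these calls have no background. In the fit with all 15 samples, 0.0115% of all genes and loci were called for LG against MG, 0.0154% for EL against LG, 0.0269% for EL against MG, 0.0115% for W2 against MG, 0.0346% for W2 against LG and 0.542% for W2 against EL. At an unadjusted p below 0.05 limma gave 1 of the 8 tested genes for EL against MG, where 15.9% of all genes and loci had such a p, 4 for W2 against EL, where 25.1% had, and 0 for the other 4 of these comparisons. The smallest two-sided p of an exact permutation test on a single gene was 0.1 here, since each stage had 3 counted samples.

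Across the 92 tested pairs of a gene and a comparison 13 were called. Beside the median of all genes and loci, the median of the 10 genes was 1.14 against -0.22 for PL minus EL, 0.22 against 0.68 for W2 minus PL, -0.24 against -0.57 for PL minus MG and 0.22 against -0.45 for PL minus LG. S100A6 and ANXA8, which were chosen for EL, are among the 10. For PL minus EL the median of 1.14 lies midway between S100A11 (0.64) and S100A6 (1.65), with ANXA8 (2.44) above. That median is thus raised by the genes chosen for EL. Without PL sample 2 these medians of the 10 genes were 1.77, -0.55, 0.55 and 1.10, and with median ratio scaling 1.48, -0.53, 0.42 and 0.73, so that W2 minus PL and PL minus MG turned sign. The median of all genes was itself shifted between stages, and the median ratios used for scaling were -0.82 to -0.25 in PL and 0.23 to 0.36 in W2 on the log2 scale. Under that scaling, ANXA1, ANXA5, S100A6 and S100A11 changed sign between PL and W2, as the plot of the W2 minus PL differences shows.

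**Figure D5:**
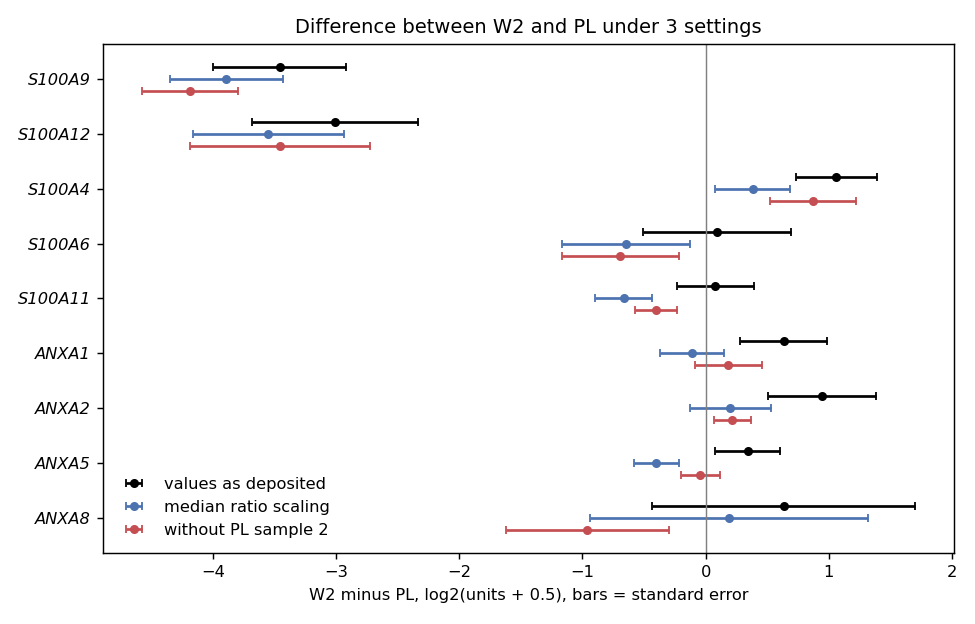
W2 minus PL on the log2(units + 0.5) scale (horizontal axis; points are estimates and bars standard errors) for 9 of the 10 genes, with the values as deposited, with median ratio scaling and without PL sample 2. S100A8 is left out, since every W2 value of it is listed at 0. S100A9 and S100A12 stay below -3 under all 3 settings, and S100A11 moves from 0.08 to -0.66 and -0.40.

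Of the 14 other S100 genes 8 were in the table, and 2 were called over the 5 stages. S100A2, an S100 protein of basal and stratified epithelium, had 66.9, 446 and 256 units in PL and 11.5 to 43.9 in the other 12 samples, so every PL sample was above all others. It was higher in PL than in EL by 3.03 ± 0.59 (adjusted p = 0.013) and W2 minus PL was -2.69 ± 0.59 (adjusted p = 0.0052). It was called in all 4 comparisons with PL, also with median ratio scaling, with quantile normalization and without PL sample 2. S100B, known from glia and fat cells, had 2.04, 7.62 and 7.61 units in PL and 24.6, 28.0 and 21.1 in W2, a rise of 2.18 ± 0.43 (adjusted p = 0.0030). Over all 8 genes, 1 was called higher in PL than in EL, beside 0.777% of all genes and loci. In W2 against PL 2 of the 8 were called higher in W2, beside 30.4%, and 1 higher in PL, beside 2.48%.

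Of the 8 other annexins 6 were in the table, and none was called higher in PL than at any other stage. ANXA7, an annexin of vesicle fusion, had 33.0, 61.1 and 58.2 units in PL and 86.8, 96.6 and 101 in W2, a rise of 0.94 ± 0.21 (adjusted p = 0.0049). ANXA9 had 0.81, 2.31 and 1.19 units in PL and 6.49, 7.17 and 7.83 in W2, a rise of 2.06 ± 0.36 (adjusted p = 0.0015). ANXA11 and ANXA13 were also called higher in W2, which makes 4 of 6, beside 30.4% of all genes and loci, and with median ratio scaling ANXA9 alone was (1.46, adjusted p = 0.0076).

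Of 13 receptors and partners 11 were in the table. CACYBP, the calcyclin-binding protein, had 46.2, 45.6 and 43.6 units in PL and 71.1, 95.4 and 106 in W2, a rise of 0.98 ± 0.16 (adjusted p = 0.0012). SUGT1, a co-chaperone related to it, rose by 0.95 ± 0.22 (adjusted p = 0.0069). Neither was called with median ratio scaling (0.24 and 0.30). These 2 were the only genes of the list called in W2 against PL, 2 of 11 beside 30.4% of all genes and loci called higher in W2. The calgranulin receptor TLR4 had 8.22, 19.1 and 30.0 units in PL and 9.54 to 15.9 elsewhere, and AGER had 0, 2.87 and 3.59 units in PL and 0 to 0.82 elsewhere. PL samples 3 and 6 were thus above all other samples for both receptors and PL sample 2 was not, and neither was called in a comparison with PL. Without PL sample 2 both were called higher in PL in all 4 comparisons, and with median ratio scaling TLR4 was. With that scaling CD36, of the same list, was called higher in PL than in MG and in W2. The share of all genes and loci called in these fits was not computed, so these calls have no background.

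Likeness over the 15 samples was measured by Pearson's r of log2(units + 0.5) against the 5746 reference genes with a mean of at least 10 units. These correlations describe the same 15 libraries, whose points share 5 stages. S100A9 was most like LRG1, an acute-phase glycoprotein (r = 0.97), CD14 (r = 0.96) and SPP1, osteopontin (r = 0.95), and S100A8 was most like LRG1 (r = 0.95), SYNM (r = 0.94) and BHLHE40 (r = 0.92). S100A12 was most like SRPRB (r = 0.94), CDK2AP2 (r = 0.93) and ERP44 (r = 0.92). ANXA1 was most like ITGAV, an integrin chain (r = 0.96), KRT8, a luminal keratin (r = 0.95), and ANXA5 (r = 0.94). ANXA2 was most like FRMD6 (r = 0.98), GGTA1P (r = 0.98) and SDC1 (r = 0.97), and ANXA5 was most like TMEM60 (r = 0.95), UBE2D1 (r = 0.94) and ANXA1 (r = 0.94). ANXA8 was most like S100A6 (r = 0.91), UBTD2 (r = 0.91) and TFAP2A (r = 0.89). S100A6 was most like SSFA2 (r = 0.91), LBH (r = 0.90) and DRAM2 (r = 0.89). S100A11 was most like LOXL2 and DAPK3 (r = 0.94 each) and CBR1 (r = 0.92), and S100A4 was most like ZNF322 (r = 0.89) and MAPK6 (r = 0.88). Within the 10 genes the closest pairs were ANXA1 with ANXA5 (r = 0.94), S100A9 with S100A12 (r = 0.93), S100A8 with S100A9 (r = 0.93) and S100A6 with ANXA8 (r = 0.91).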

How the data were processed

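The deposited table gives StringTie transcript values that the authors call FPKM, made from reads trimmed with Trimmomatic and aligned with HISAT2 to Sscrofa11.1. Each column summed to nearly the same total, as TPM do. It holds no read counts, so counting error could not be computed from it, and limma takes the place of a count test. Transcript identifiers were matched to genes of the Sscrofa11.1 RefSeq table: 32398 by accession and 315 by symbol, 29047 were assembled transcripts and 13 were unmatched. No sequences of these genes were used here.

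Values were summed per gene, log2(units + 0.5) was fitted with limma 3.58.1 (R 4.3.3, trended variance) to the 15 counted samples of all 5 stages, and p-values were adjusted over 25991 genes and loci or 61773 transcripts by Benjamini-Hochberg. A fold on this scale understates the change of low genes. No filter on low values was applied. The fit was tested on simulated data, and the outcome is not reported here. The study's RUVs correction was not repeated.

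The members and gene lists were chosen with earlier results of these data known. The 10 members were described with every transcript of at least 10% of the gene, called comparisons and consecutive steps, the other families by counts and up to 5 genes called over the stages, and likeness by the top 3 genes; 1 such gene and 1 neutrophil marker are not reported here. The 15 near copies of the stage means were left out. The alternatives were pseudocounts of 0.1 and 1, a mean of at least 1 unit, median ratio scaling, quantile normalization, all 6 samples, the mean of the copies as an added sample, a replicate block, the compared stages alone, each sample left out, and the top transcript of a gene.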

Additional observations from a re-analysis of the deposited data

How the results depend on the processing

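Of the 12 calgranulin differences with PL, recomputed under 25 alternatives each, 285 of 300 values kept their direction and their call, 15 kept the direction without the call and 0 turned. Most of the 15 came from fitting the compared stages alone and from the top transcript of S100A9 alone. Fitting the compared stages alone lost 9 of the 12 calls. In these genes every PL sample lay above all others, so leaving out a sample or changing the pseudocount could not turn a direction. The alternatives share most of their samples, so the 300 values are not independent. The count of genes called over the stages was 3, and was 8 with all 6 samples, 6 with the near-identical samples averaged into an added sample and 3 to 7 with 1 sample left out (7 without PL sample 2, 5 without PL sample 3). The count of called pairs was 13, and was 38 with all 6 samples, 22 with the added sample, 3 with the compared stages alone and 12 to 21 with 1 sample left out (21 without PL sample 2). The count of called transcript pairs was 11, and was 59, 21 and 0 under the same first 3 settings and 8 to 14 with 1 sample left out. The copies of the means shrink the spread by construction. The stages alone leave fewer samples to estimate it. They also leave out stages at or near 0, which lower the spread of the calgranulins in the main fit. The part of each in the lost calls was not tested. Shares of all genes and loci called under these alternatives were not computed.

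The replicate block gave 4 genes over the stages, 13 pairs and 3 transcript pairs. The numbers do not pair the samples: deviations of 19 same-number pairs correlated at -0.14 to 0.19 (median -0.0019) and those of 71 other pairs at -0.16 to 0.25. Under the block S100A12 in PL against EL lost its call (adjusted p = 0.059), as it did without EL sample 3.

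Several uncalled differences turned sign. For W2 minus PL, median ratio scaling gave -0.11 for ANXA1, -0.40 for ANXA5, -0.66 for S100A11 and -0.65 for S100A6, and quantile normalization -0.22, -0.53 and -0.51 for the last 3. Leaving out PL sample 2 gave -0.045 for ANXA5, -0.40 for S100A11, -0.69 for S100A6 and -0.96 for ANXA8, leaving out W2 sample 6 gave -0.07 for S100A11 and -0.24 for S100A6, and leaving out W2 sample 3 gave -0.20 for S100A6. For PL minus EL, ANXA2 turned to 0.092 with median ratio scaling, 0.29 with quantile normalization, 0.14 with the replicate block and 0.48 without PL sample 2, and ANXA5 to -0.0053 without PL sample 3. With 1 sample left out, PL minus EL went from -0.73 to 0.48 for ANXA2 and from -0.0053 to 0.62 for ANXA5, and W2 minus PL reached 0.58 for ANXA5, 0.40 for S100A11, 0.71 for S100A6 and 1.66 for ANXA8 at its highest. The cause was not tested.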

Other observations

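The 15 columns left out as near copies of the stage means also held calgranulin values. In PL they gave 5.52, 5.76 and 6.60 units for S100A8, 7.51, 6.55 and 9.57 for S100A9, and 8.57, 9.52 and 8.96 for S100A12. At the other stages S100A8 reached at most 0.73 units in them, in LG, where the 3 counted samples were all listed at 0. S100A9 had 1.19, 0.81 and 0.78 units in these columns of EL, where the 3 counted samples were also at 0, and up to 1.30 in MG. S100A12 reached 2.05 units in MG, above the 1.39 of the highest counted sample outside PL.

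Markers of keratinised epithelium were high in single samples. KRT1 was listed at 207 units in W2 sample 6, 47.2 in MG sample 6 and 26.7 in LG sample 4, and at 6.25 units or less in the other counted samples. In W2 sample 6 the 5 markers of that list found in the table summed to 407 units. ANXA4 had 6.15 units in PL sample 2 and at most 0.47 in the other counted samples.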
